A study of Homo sapiens with 60 samples.

Results

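Kynurenine was given together with hemin to HCT116 spheroids, HCT116 being an established line from a human colorectal tumour, and RNA of these spheroids was set against RNA of spheroids given hemin alone. The comparison takes 20 of the 60 samples of the study, which were selected by treatment label. It was chosen with earlier results of these data known. In each of 2 media, called Medium 1 and Medium 2 in the labels, 5 libraries of hemin at 0.1 µM with kynurenine at 1 µM were compared with 5 libraries of hemin at 0.1 µM, and the 10 libraries of each treatment were also compared across both media with the medium held fixed. The culture medium of all groups was DMEM rich in glucose, to which 10% FBS had been added, and the compounds were present from day 1 to day 8. The study sampled spheroids either at once or after 3 h in a nutrient-deprived medium, and the labels do not tell whether the deprived condition is Medium 1 or Medium 2. HCT116 is a single established line, so the libraries of a group repeat a culture of the same cells and carry no tissue, immune or bacterial partner. Untreated spheroids and spheroids given kynurenine at 1 µM without hemin, 5 libraries each in each medium, serve as reference points.

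Kynurenine is made from tryptophan when the indole ring is opened, enters cells through amino acid exchangers of the SLC7 family, and is a ligand of the aryl hydrocarbon receptor. The bound receptor enters the nucleus, pairs with ARNT and binds a short DNA core, GCGTG, near genes that include CYP1A1 and CYP1B1, which encode detoxifying cytochromes, and TIPARP and AHRR, which encode proteins that limit the receptor. Hemin is the oxidised form of heme. Inside cells heme is broken down by HMOX1, releases iron that is stored by the ferritins FTH1 and FTL, relieves repression by BACH1 and lowers the heme-synthesis enzyme ALAS1.

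Adding kynurenine to hemin raised CYP1A1 in both media, raised TIPARP in Medium 1 and raised ALDH1A3, which encodes an enzyme that makes retinoic acid, in Medium 2. Of 11298 genes tested with edgeR's quasi-likelihood test, 2 (0.0177%) passed an adjusted p of 0.05 in Medium 1, and both were higher. In Medium 2, 49 genes (0.434%) passed, 29 higher (0.257%) and 20 lower (0.177%). With both media together, 1 gene (0.00885%), CYP1A1, passed. No label says that the libraries of a group came from separate cultures or days beyond calling them biological replicates, so the p-values cover the variation among these samples, which may be technical.

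The promoter windows of these 3 genes are shown, ALDH1A3 being included because it passed. CYP1B1 was also looked up and had no window in the promoter table. TIPARP kept its call in Medium 1, ALDH1A3 in Medium 2 and CYP1A1 over both media in every fit run. Within single media CYP1A1 lost its call in some fits. Each window runs from 250 bases before to 50 bases after the annotated start in RefSeq (GRCh38.p14), and capitals mark the receptor core on either strand, GCGTG or its reverse complement CACGC. The CYP1A1 window is chr15:74725479-74725778 on the minus strand, the TIPARP window chr3:156674340-156674639 on the plus strand and the ALDH1A3 window chr15:100879581-100879880 on the plus strand.
CYP1A1: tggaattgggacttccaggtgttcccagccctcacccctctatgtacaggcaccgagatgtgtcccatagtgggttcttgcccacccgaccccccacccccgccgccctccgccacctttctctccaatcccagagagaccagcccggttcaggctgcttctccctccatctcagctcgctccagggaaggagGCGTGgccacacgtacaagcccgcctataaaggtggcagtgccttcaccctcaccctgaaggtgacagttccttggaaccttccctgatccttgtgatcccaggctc
TIPARP: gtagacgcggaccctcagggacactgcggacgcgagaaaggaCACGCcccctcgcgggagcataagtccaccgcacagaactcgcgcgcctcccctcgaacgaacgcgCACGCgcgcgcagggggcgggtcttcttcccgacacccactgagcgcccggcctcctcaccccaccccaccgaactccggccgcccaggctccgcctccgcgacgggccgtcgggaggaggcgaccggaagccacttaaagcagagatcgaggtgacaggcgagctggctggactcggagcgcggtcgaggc
ALDH1A3: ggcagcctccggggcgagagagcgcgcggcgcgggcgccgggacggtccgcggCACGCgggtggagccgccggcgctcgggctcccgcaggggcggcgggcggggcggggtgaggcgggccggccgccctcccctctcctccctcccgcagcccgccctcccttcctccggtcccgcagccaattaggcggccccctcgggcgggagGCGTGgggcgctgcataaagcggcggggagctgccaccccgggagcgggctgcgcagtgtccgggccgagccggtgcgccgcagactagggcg
The core starts 57 bases before the CYP1A1 start site, 208 and 142 bases before the TIPARP start site, and 197 and 43 bases before the ALDH1A3 start site. Each of 2 further TIPARP windows, at other annotated starts, holds none. A match of 5 letters is common and is only a description: 36.5% of all 35116 windows of 300 bases in the table, and 49.6% of the 12469 windows of tested genes, hold the core on either strand.

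CYP1A1 (chromosome 15, 74719542 to 74725528) encodes the cytochrome that oxidises planar aromatic compounds and is the most widely used readout of the receptor. In Medium 1 the 5 hemin libraries held 3.05, 2.49, 2.77, 1.83 and 3.11 CPM (counts scaled to the size of each library), and the 5 libraries with kynurenine added held 7.28, 6.13, 9.36, 10.8 and 7.18 CPM. Every library with kynurenine was above every library without it, at 8.14 ± 1.88 against 2.65 ± 0.518 CPM (mean ± SD, n = 5 each). The rise was 2.97-fold, 1.57 on the log2 scale with a standard error of 0.29 and an adjusted p of 0.0068. These levels rest on few molecules, 3 to 8 counts in a hemin library and 12 to 20 in a library with both compounds.

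In Medium 2 the hemin libraries held 9.91, 8.62, 13.4, 18.5 and 12.96 CPM of CYP1A1 and those with kynurenine 28.7, 25.3, 25.5, 33.4 and 23.9 CPM. The groups again did not overlap. The rise was 2.13-fold, or 1.09 on the log2 scale, with a standard error of 0.22 and an adjusted p of 0.015. Over both media CYP1A1 rose 2.52-fold (log2 1.33, standard error 0.18, adjusted p = 8.53e-06), and this call was kept in all 20 fits that left out 1 library, with log2 values from 1.27 to 1.42. The rises in the 2 media differed by -0.48 on the log2 scale (95% interval -1.20 to 0.24, adjusted p = 0.439), so a difference between media was not detectable for CYP1A1. Within single media the call was less firm. In Medium 1 it was lost without the hemin library of well D2 or the combination library of well E4 (highest adjusted p 0.0724), and in Medium 2 without the hemin library of well A6 or B6 (highest adjusted p 0.0775). With all libraries thinned to the lowest total the adjusted p was 0.169 and 0.0756 in the 2 media, and with the groups of the contrast fitted alone it was 0.337 in Medium 1, while the log2 values stayed between 0.91 and 1.67.

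TIPARP (chromosome 3, 156674590 to 156706770), an ADP-ribosyltransferase that dampens the receptor, answered in Medium 1 and not in the same way in Medium 2. The Medium 1 hemin libraries held 19.4, 24.2, 41.1, 25.7 and 44.5 CPM and those with kynurenine 79.6, 83.8, 83.7, 102.8 and 67.1 CPM. The lowest library with kynurenine stood above the highest without it. The rise was 2.71-fold (log2 1.44, standard error 0.22, adjusted p = 0.000108) and passed in all 10 fits that left out 1 library, at log2 1.29 to 1.60.

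In Medium 2 the hemin libraries began higher, at 85.4, 70.9, 73.8, 74.2 and 76.1 CPM of TIPARP, and the libraries with kynurenine held 26.6, 75.4, 55.8, 54.6 and 53.9 CPM. The groups overlapped through the library of well A8, and the library of well H7 was the lowest. The log2 difference of -0.51 (95% interval -0.93 to -0.09) did not pass, with an adjusted p of 0.2. The response of TIPARP in Medium 2 minus that in Medium 1 was -1.95 (standard error 0.30, adjusted p = 0.000219), so the responses in the 2 media differed.

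ALDH1A3 (chromosome 15, 100879831 to 100916626) encodes a dehydrogenase that turns retinaldehyde into retinoic acid. In Medium 2 it stood at 107, 114, 108, 145 and 116 CPM with hemin and at 314, 193, 208, 215 and 268 CPM with kynurenine added. No library of the first group reached the second. The rise was 2.02-fold (log2 1.02, standard error 0.16, adjusted p = 0.000315) and passed in all 10 fits that left out 1 library, at log2 0.91 to 1.1.

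In Medium 1 the hemin libraries held a median of 173 CPM of ALDH1A3 within a range of 107 to 192.5, and those with kynurenine a median of 166 within 142.5 to 198. The groups overlapped almost fully, with a log2 difference of 0.01 (95% interval -0.30 to 0.33). The Medium 1 means were 121 CPM in untreated spheroids, 165 with hemin and 167 with both compounds. Hemin alone differed from untreated by 0.45 in Medium 1 (95% interval 0.13 to 0.77, edgeR adjusted p = 0.0912) and by 0.13 in Medium 2. The hemin mean in Medium 1 was thus above the untreated mean, by a difference that did not pass. The part of the hemin level in the flat difference was not tested. The responses in the 2 media differed by 1.00 (standard error 0.22, adjusted p = 0.00931). Pooled over media the log2 difference was 0.52 (adjusted p = 0.11) and did not pass.

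**Figure D1:**
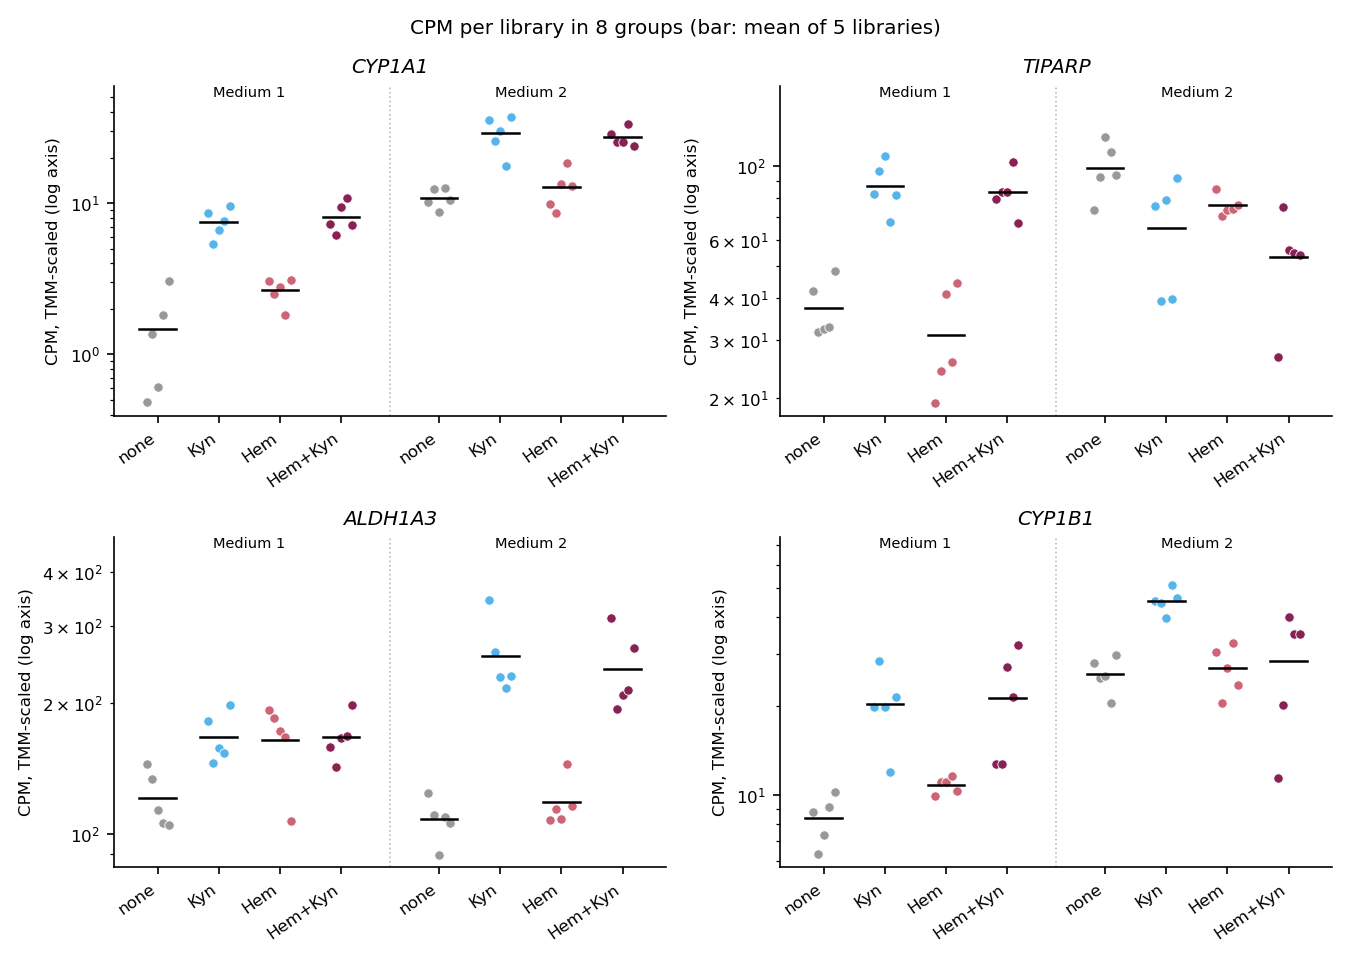
CPM (log axis) of CYP1A1, TIPARP, ALDH1A3 and CYP1B1 in each library of 8 groups, untreated (none), kynurenine (Kyn), hemin (Hem) and both compounds (Hem+Kyn) in Medium 1 and Medium 2; points are libraries and bars the means of 5. With kynurenine added to hemin, CYP1A1 rises in both media, TIPARP in Medium 1 and ALDH1A3 in Medium 2. CYP1B1 with both compounds spreads from 11.4 to 40.1 CPM in Medium 2.

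The remaining genes of the receptor's target list did not pass in either medium. CYP1B1, a cytochrome that oxidises steroids and aromatic compounds, stood at 9.91, 11.04, 11.1, 11.6 and 10.4 CPM with hemin in Medium 1 and at 12.7, 12.8, 27.04, 21.5 and 32.1 CPM with kynurenine added. These groups did not overlap, which held for 113 genes (1%) in Medium 1, yet the log2 difference of 0.98 (95% interval 0.45 to 1.51) had an adjusted p of 0.35. In Medium 2 its log2 difference was 0.08 (95% interval -0.41 to 0.56).

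AHRR, the receptor's repressor, held 3.81, 9.61, 1.85, 5.50 and 3.11 CPM with hemin in Medium 1 and 9.55, 3.06, 12.5, 8.61 and 8.87 CPM with kynurenine. The groups overlapped, and the log2 difference of 0.79 had an adjusted p of 0.371. In Medium 2 it was -0.09. NQO1, a quinone reductase driven by the receptor and by NRF2, differed by 0.36 in Medium 1 (95% interval 0.06 to 0.67, adjusted p = 0.371) and by 0.16 in Medium 2. STC2, a secreted glycoprotein on the target list, differed by 0.31 in Medium 1 (adjusted p = 0.439).

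Of the 20 genes of the target list, 14 had enough counts to be tested. Among these, 2 passed in Medium 1 and the median log2 difference was 0.37, beside 0.02 over all genes tested. In Medium 2, 1 of the 14 passed and the median was -0.04, beside -0.002 over all genes. TIPARP was the only member of the list whose response differed between media. The receptor AHR itself differed by 0.18 in Medium 1 and 0.15 in Medium 2, with 95% intervals from -0.22 to 0.57 and from -0.27 to 0.57. Its partner ARNT differed by 0.30 and -0.19. None of the 12 core genes of the pathway, which include the chaperones HSP90AA1 and PTGES3, passed in either medium.

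**Figure D2:**
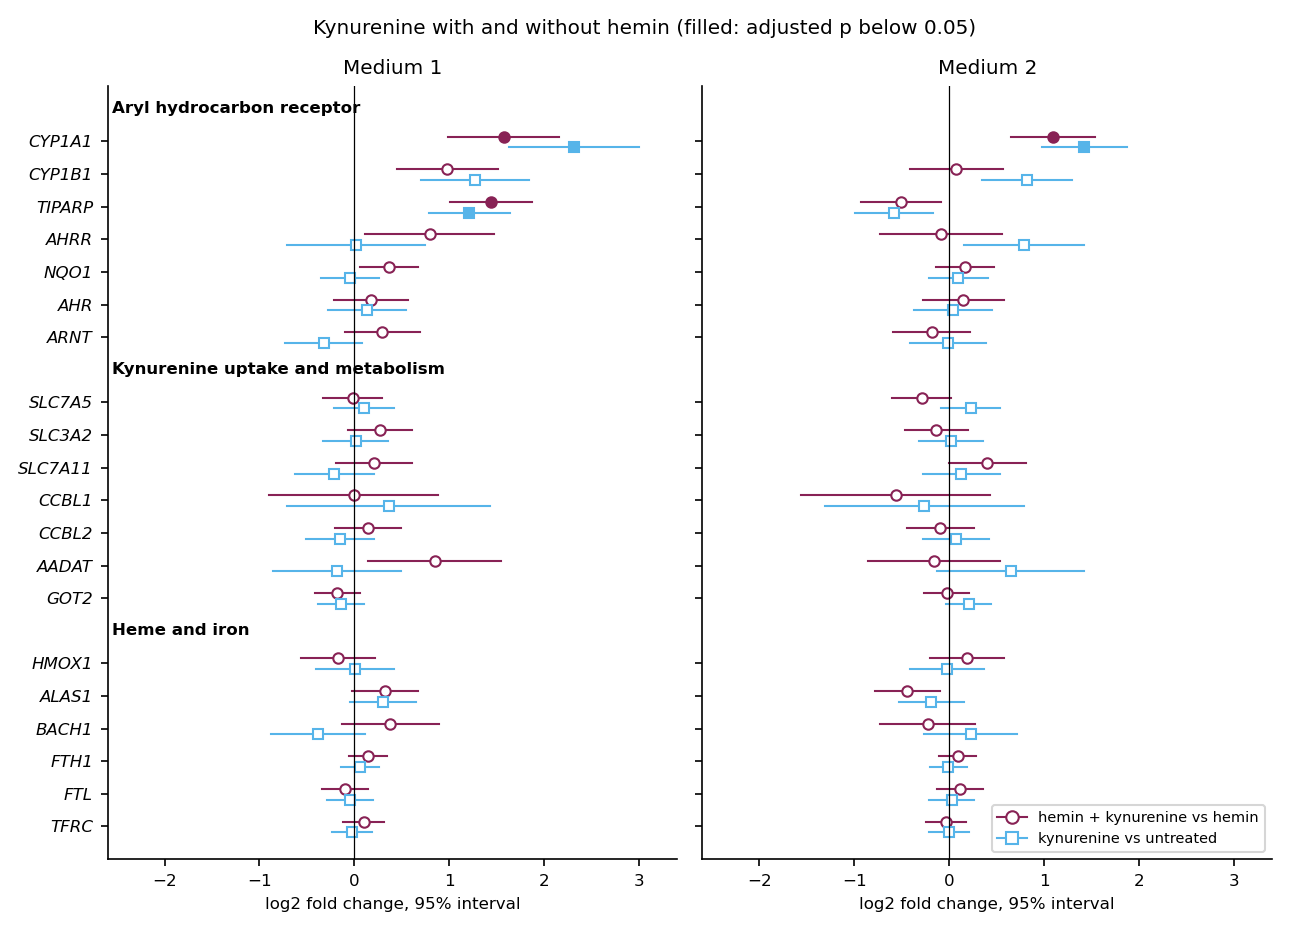
Log2 fold change with its 95% interval for 20 genes of the receptor pathway, kynurenine handling, and heme and iron, in Medium 1 (left) and Medium 2 (right); circles compare hemin plus kynurenine with hemin, squares kynurenine with untreated spheroids, and filled symbols have an adjusted p below 0.05. Filled circles are CYP1A1 in both media and TIPARP in Medium 1, and no gene of the lower groups is filled.

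Genes that move kynurenine across membranes or metabolise it did not change detectably. SLC7A5, the light chain of the large neutral amino acid exchanger, stood at 216, 174, 212, 262 and 132 CPM with hemin in Medium 1 and at 253, 174, 184, 156 and 217 CPM with kynurenine, a log2 difference of -0.02 (95% interval -0.33 to 0.29). In Medium 2 the log2 difference of SLC7A5 was -0.29 (95% interval -0.60 to 0.02). Its partner SLC3A2 differed by 0.27 and -0.14, and SLC7A11, the cystine and glutamate exchanger that can also carry kynurenine, by 0.21 and 0.40. None of the 9 measured transporters of the list passed in either medium.

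The aminotransferases that turn kynurenine into kynurenic acid were named CCBL1 (now KYAT1), CCBL2 (now KYAT3), AADAT and GOT2 in the table. None passed in either medium, with log2 differences in Medium 1 and Medium 2 of -0.01 and -0.57 for CCBL1, 0.15 and -0.095 for CCBL2 and -0.18 and -0.03 for GOT2. AADAT was the one with the largest difference, at 9.15, 7.48, 6.46, 3.06 and 10.9 CPM with hemin in Medium 1 and 15, 14.8, 11.96, 19.4 and 7.18 CPM with kynurenine. The groups overlapped, and its log2 difference was 0.84 (95% interval 0.14 to 1.55, adjusted p = 0.363). In Medium 2 the log2 difference of AADAT was -0.16 (adjusted p = 0.869). KYNU, which cleaves kynurenine to anthranilic acid, had 0 counts in all 20 libraries, and so had KMO, TDO2, IDO2 and HAAO. IDO1, which opens the tryptophan ring, had 7 counts in the 20 libraries together. Counts this low were below the filter and were not tested.

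No gene of the heme and iron lists passed in either medium. HMOX1 held 54.1, 55.5, 44.3, 47.1 and 30.04 CPM with hemin and 43.6, 29.1, 33.8, 39.8 and 58.7 CPM with kynurenine added in Medium 1. The groups overlapped, with a log2 difference of -0.17 (95% interval -0.56 to 0.21), and in Medium 2 the difference was 0.19 (95% interval -0.20 to 0.58). ALAS1 differed by 0.32 in Medium 1 and -0.44 in Medium 2 (adjusted p = 0.436 and 0.176), and the test of that contrast between media gave an adjusted p of 0.0524.

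BACH1 differed by 0.38 and -0.23 without passing in either medium. For the ferritin chain FTH1, the log2 differences were 0.14 and 0.09, and for FTL -0.10 and 0.11. The Medium 2 groups did not overlap for FTL, at 641.4 ± 38.3 CPM with hemin and 694.7 ± 29.4 CPM with kynurenine added (SD, n = 5 each), without passing. Such a lack of overlap held for 566 genes (5.01%) in Medium 2. The transferrin receptor TFRC differed by 0.10 (95% interval -0.115 to 0.31) and -0.03 (95% interval -0.24 to 0.18). None of the 15 measured genes of iron storage and transport, the 11 of heme synthesis or the 13 of heme uptake, export and breakdown passed in either medium. With hemin alone against untreated spheroids HMOX1 differed by 0.39 in Medium 1 (95% interval -0.002 to 0.79, adjusted p = 0.235) and by -0.08 in Medium 2 (95% interval -0.48 to 0.32), and passed in neither. That comparison called 5 genes higher (0.0443%) and 10 lower (0.0885%) in Medium 1 and 0 in Medium 2.

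In Medium 2, 29 genes rose, CYP1A1 and ALDH1A3 among them. PSMB1, a subunit of the proteasome core, stood at 203, 208, 226, 274 and 216 CPM with hemin and at 512, 416, 308, 343 and 380 CPM with kynurenine. These groups did not overlap, as for 566 genes (5.01%) in Medium 2, and PSMB1 rose by 0.80 on the log2 scale (standard error 0.17, adjusted p = 0.0216). COIL, the scaffold of Cajal bodies, rose by 0.63 from 44.7 ± 5.28 to 69.2 ± 4.40 CPM (SD, n = 5 each, edgeR adjusted p = 0.0229).

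GTF2F2, the small subunit of the transcription factor TFIIF, rose by 0.68, MRPS27, a mitochondrial ribosomal protein, by 0.67, MED31, a subunit of Mediator, by 0.62, and SNHG12, a host gene of small nucleolar RNAs, by 1.29. Adjusted p was between 0.0162 and 0.0229 for these 4 genes. RP9 (1.18), DHRS4 (1.21) and RPS3A (0.78), a ribosomal protein, also passed, and reads of these genes may be shared with near-identical copies, so their values are uncertain. RPS3A was the only one of 79 cytosolic ribosomal protein genes to pass, and their median was 0.13.

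In Medium 2, 20 genes fell. SERINC2, of a family of membrane proteins linked to serine incorporation, stood at 41.9, 70.3, 38.9, 46.6 and 55.9 CPM with hemin and at 13.1, 15.9, 28.7, 22.7 and 27.6 CPM with kynurenine. The groups did not overlap, and SERINC2 fell by 1.23 on the log2 scale (standard error 0.24, adjusted p = 0.0109). KLK7, a secreted serine protease, held 19.1, 21.2, 15.4, 24.1 and 19.4 CPM with hemin and 8.01, 12.3, 10.2, 9.22 and 9.37 CPM with kynurenine. It fell by 1.01 (standard error 0.23, adjusted p = 0.026).

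NEO1, the neogenin receptor of netrins, fell by 0.72, DIAPH1, an actin-nucleating formin, by 0.61, and ARHGAP32, a GTPase-activating protein, by 0.91. ANKRD28, a regulatory subunit of protein phosphatase 6, fell by 0.78, and SYT1, a calcium sensor of vesicle release, by 0.75. VHL, which marks hypoxia-inducible factors for destruction, fell by 0.60, and the nuclear receptor NR2F2 by 0.48. The adjusted p of these 7 genes lay between 0.015 and 0.0272. The hypoxia list, 21 measured genes, had none that passed and a median of -0.19 in Medium 2.

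Most of the 49 calls hung on single libraries. Of these genes 2 were called in each of the 10 fits that left out 1 library, ALDH1A3 among them, and ALDH1A3 was also called under the 7 other settings tried. Without a hemin library the number called in Medium 2 was 7 (well A6), 5 (B6), 13 (C6), 97 (D6) and 7 (E6). Without a combination library it was 17 (H7), 11 (A8), 144 (B8) and 21 (D8). The number without C8 is not listed and lay within the range of 5 to 144. Without H7, which stood apart on the second principal component (43.5, beside -0.9 to 17.1 for its group), 13 of the 49 genes were still called. No gene of the 49 changed direction in these fits. The library totals of the 2 treatments did not overlap in Medium 2, at 1346147 to 1824747 counts with hemin and 2151094 to 2981629 with kynurenine added. With all libraries thinned to the same depth, 53 genes passed and 34 of them were among the 49. RNAs that stay in the nucleus served only as an indirect sign of RNA quality in Medium 2 and are no measure of it. NEAT1 ran from 1.62 to 7.86 CPM with hemin and from 6.68 to 15.6 CPM with kynurenine, and MALAT1 from 640 to 1110 CPM and from 582 to 1870 CPM. Both pairs of ranges overlapped, for NEAT1 only through the hemin library of well D6. The other Medium 2 hemin libraries held less NEAT1 than every library with kynurenine. In Medium 1 with hemin NEAT1 ran from 27.4 to 88.8 CPM, so its level also differed by medium. The median of the 3 tested genes of the list of such nuclear RNAs was 0.59 in Medium 2 and -0.08 in Medium 1. None passed, and their part in the result was not tested.

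**Figure D3:**
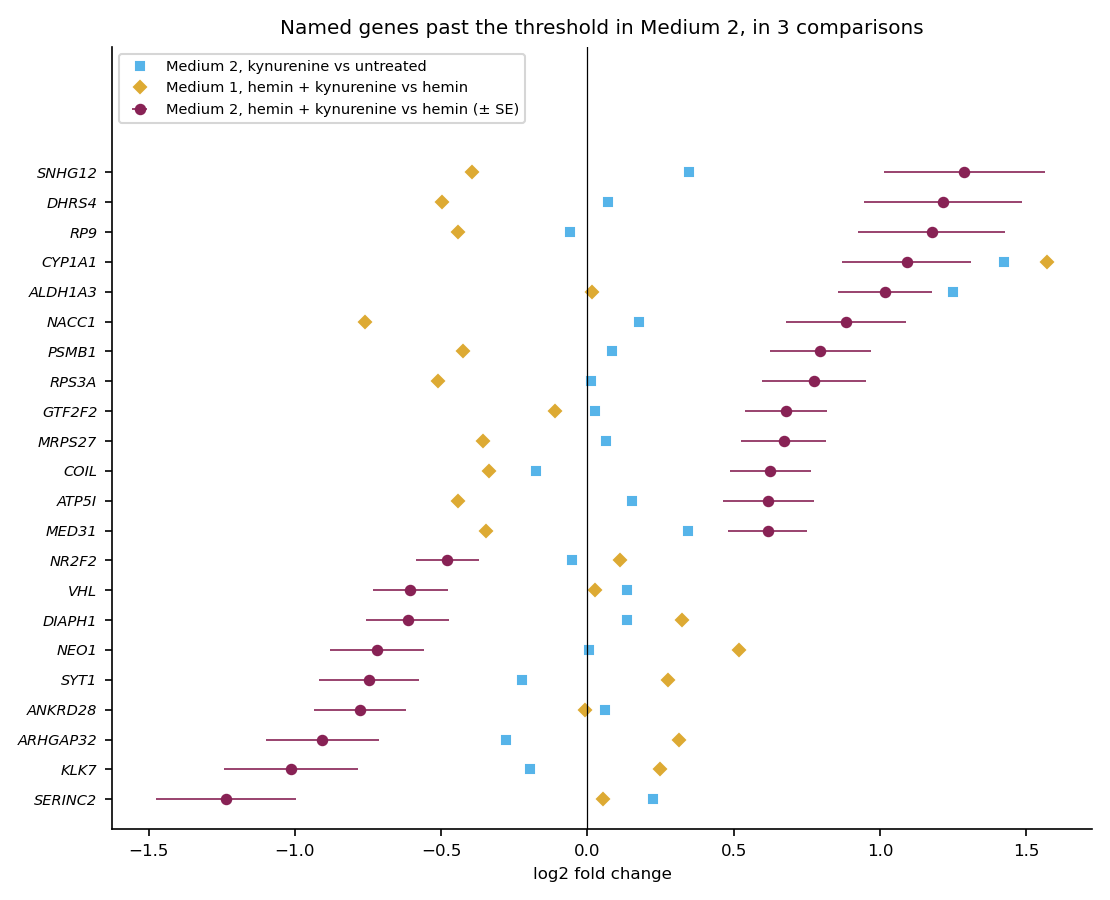
Log2 fold changes of 22 named genes of the 49 past the threshold in Medium 2, ordered by that value (circles with standard error), beside the same comparison in Medium 1 (diamonds) and kynurenine against untreated spheroids in Medium 2 (squares). Diamonds lie on the opposite side of 0 from the circles for 19 of the 22 genes, and CYP1A1 and ALDH1A3 are the genes whose squares lie beyond the circles.

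Kynurenine without hemin gave a separate reading of the same addition, since those libraries share none with the hemin groups. CYP1A1 rose with kynurenine alone by 2.31 (standard error 0.34) in Medium 1 and by 1.42 (standard error 0.22) in Medium 2, with edgeR adjusted p of 7.52e-05 and 0.000148. TIPARP rose by 1.21 in Medium 1 (adjusted p = 0.00279) and differed by -0.58 in Medium 2 without passing. ALDH1A3 rose by 1.25 in Medium 2 (adjusted p = 1.18e-06) and differed by 0.47 in Medium 1 (95% interval 0.15 to 0.79) without passing. In all 3 genes the medium in which the addition passed was the same with and without hemin.

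Of the 49 genes of Medium 2, 31 (63.3%) had the same sign with kynurenine alone in that medium, 2 of them were called there, and the median response in the direction of the hemin comparison was 0.04. The background in that comparison was 3 of 11298 genes called (0.0266%), and in Medium 1 4 genes (0.0354%). SERINC2 was at 0.22 with kynurenine alone and PSMB1 at 0.08. Across all tested genes the responses with and without hemin had a Pearson correlation of 0.01 in Medium 2 and -0.08 in Medium 1, given as a description over genes that are not independent replicates.

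The response with hemin minus the response without it was tested directly. No gene passed in Medium 1, Medium 2 or both media (0%), while 962, 1417 and 1018 genes had an unadjusted p below 0.05. DESeq2 called 0, 35 and 0 genes in the same comparisons, and edgeR called 161 in Medium 2 without the kynurenine library of well F6. For CYP1A1 the difference was -0.74 (95% interval -1.68 to 0.19) in Medium 1 and -0.33 (95% interval -0.96 to 0.30) in Medium 2. For TIPARP in Medium 1 it was 0.23 (95% interval -0.38 to 0.83), and for ALDH1A3 in Medium 2 -0.23 (95% interval -0.68 to 0.22). CYP1B1 differed by -0.74 in Medium 2 (95% interval -1.42 to -0.06, adjusted p = 0.352). STC2 rose with kynurenine alone in Medium 1 by 0.95 (adjusted p = 0.0034), and its response with hemin was lower by 0.64 (95% interval -1.12 to -0.16 for the difference, adjusted p = 0.561).

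The responses in the 2 media ran against each other over many genes. The difference between media passed for 582 genes (5.15%), 352 (3.12%) with the higher response in Medium 2 and 230 (2.04%) with the higher response in Medium 1. In 579 of the 582 the 2 responses had opposite signs, which selection by the difference favours, and 1 of the 582 was called in Medium 1 and 45 in Medium 2 on their own. Of the 49 genes called in Medium 2, 7 (14.3%) had the same sign in Medium 1, and 19 had the opposite sign there at an unadjusted p below 0.05. Over all 11298 genes the Pearson correlation of the 2 responses, which share no library, was -0.34 and the Spearman correlation -0.38, again as a description over genes.

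**Figure D4:**
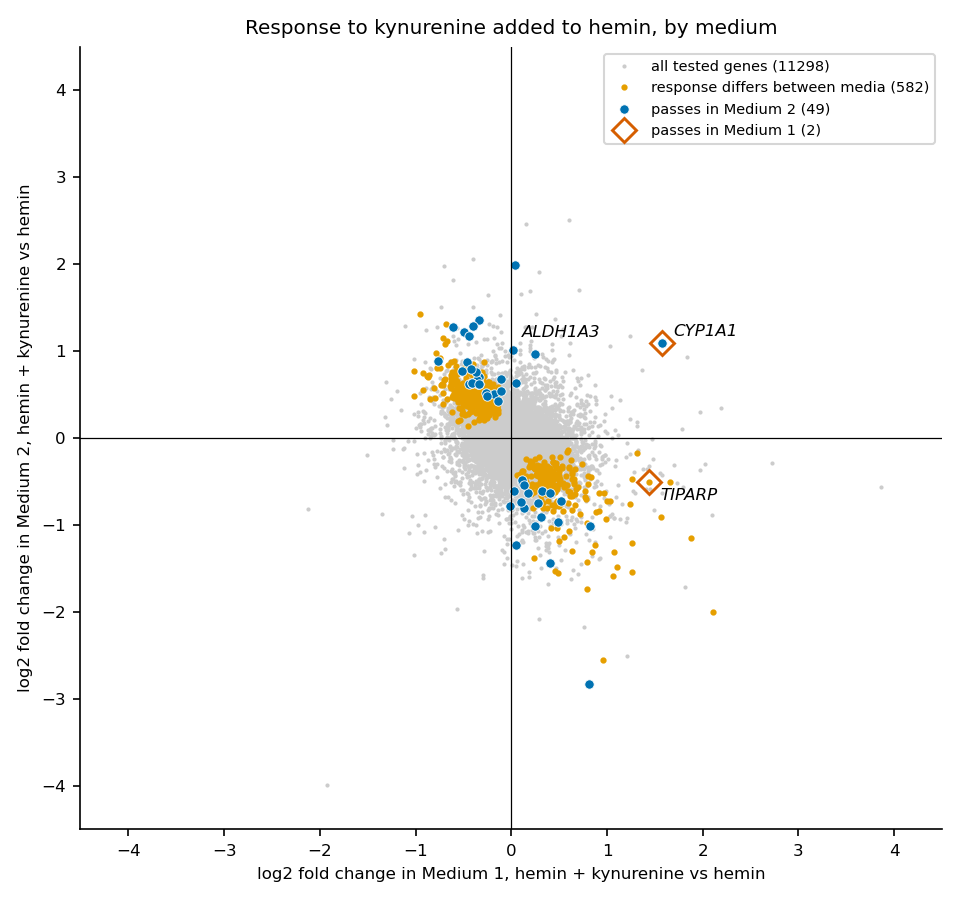
Log2 fold change of hemin plus kynurenine against hemin in Medium 1 (horizontal) and Medium 2 (vertical) for the tested genes, with 6 genes beyond ±4.5 not drawn; orange marks genes whose responses differ between media, blue those past the threshold in Medium 2 and open diamonds those past it in Medium 1. Orange points lie mostly at the upper left and lower right, CYP1A1, past the threshold in both media, is at the upper right and TIPARP at the lower right.

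NACC1, a transcriptional regulator with a BTB domain, is an example whose unadjusted p between media was among the smallest of the 582 genes. In Medium 1 it held 75.5, 71.2, 50.3, 44.6 and 40.4 CPM with hemin and 37.3, 27.1, 33.3, 34.99 and 35.04 CPM with kynurenine. In Medium 2 it held 19.8, 26.5, 27.5, 35.4 and 33.2 CPM with hemin and 73.8, 51.2, 43.99, 48.8 and 46.4 CPM with kynurenine. Neither pair of groups overlapped, which held for 1% of genes in Medium 1 and 5.01% in Medium 2. In Medium 1 the mean was 32.9 CPM in untreated spheroids, 56.4 with hemin and 33.5 with both compounds. In Medium 2 the means were 36.9, 28.5 and 52.8 CPM. Hemin alone differed from untreated by 0.79 in Medium 1 (edgeR adjusted p = 0.0581) and by -0.37 in Medium 2 (adjusted p = 0.734). The part of the hemin level in the opposed responses was not tested. NACC1 rose by 0.88 in Medium 2 (adjusted p = 0.0299), differed by -0.76 in Medium 1 without passing, and its responses differed by 1.64 (standard error 0.28, adjusted p = 0.00154). Its Medium 2 call was lost in 6 of 10 fits that left out 1 library, with plate row as a covariate and after thinning.

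Of 44 nuclear-encoded genes of oxidative phosphorylation, 9 passed the test between media, all with the higher response in Medium 2, beside 3.12% of all tested genes, and none passed within a medium. ATP5I, a subunit of ATP synthase that is not on that list and is named after its value was seen, rose by 0.62 in Medium 2 (adjusted p = 0.0496). Their median was -0.10 in Medium 1 and 0.18 in Medium 2. UQCRFS1, the iron-sulfur protein of complex III, was at -0.34 and 0.38, and NDUFB10, a subunit of complex I, at -0.31 and 0.51. Of 79 cytosolic ribosomal protein genes 12 passed between media, all higher in Medium 2, again beside 3.12% of all genes, with medians of -0.08 and 0.13.

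Heme handling included 3 of 13 genes that passed between media, again all higher in Medium 2, as did 3.12% of all genes. They were BLVRB, a biliverdin reductase, at -0.26 and 0.57, the heme-binding protein HEBP2 at -0.21 and 0.36, and PGRMC2, a heme chaperone, at -0.41 and 0.40. Of the 25 genes of cholesterol synthesis 3 passed as well, all higher in Medium 2, among them EBP and ACAT2. TXNRD1, thioredoxin reductase, went the other way, at 0.74 in Medium 1 and -0.29 in Medium 2 (adjusted p of the difference 0.016), as did ATF3, KLHL24 and SOX9. For TXNRD1 the Medium 1 means were 577 CPM untreated, 359 with hemin and 600 with both compounds. In Medium 2 they were 641, 724 and 590 CPM.

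The number of genes that differed between media also depended on single libraries. Without a Medium 1 library it was 61 (well C2), 189 (D2), 1332 (G2), 333 (B4), 194 (C4), 373 (D4), 260 (E4) and 1074 (F4). Without a Medium 2 library it was 373 (A6), 371 (B6), 350 (C6), 256 (E6), 187 (H7), 329 (A8) and 379 (D8). The numbers without E2, F2, D6, B8 or C8 are not listed and lay within the range of 61 to 1332. In each of the listed fits more genes had the higher response in Medium 2 than in Medium 1. The response of genes also followed transcript features, over the 93.5% of tested genes with a value. The Spearman correlation with the length of the longest annotated transcript was 0.13 in Medium 1, -0.18 in Medium 2 and -0.07 over both media. With GC content, the percentage of G and C bases in that transcript, it was -0.27, -0.05 and -0.28. All tested genes had a median length of 3721 bases. Genes called within Medium 2 had 2545 bases when higher (26 with a value) and 5667 when lower (19 with a value). Genes that differed between media had 2394 bases where the response was higher in Medium 2. They had 5168 bases where it was higher in Medium 1. The part of length, GC content, depth or RNA quality in these differences was not tested.

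In Medium 1 the genes next in order of p did not pass, at an adjusted p of 0.35 each. Beside TXNRD1, those higher with kynurenine were IDS, a lysosomal sulfatase, at 0.58 and GCOM1, a locus that overlaps other genes, at 1.31. Those lower were TMED1, a vesicle cargo receptor, at -1.02, the orphan receptor GPRC5C at -0.72, NACC1, the mRNA export factor RAE1 at -0.45 and STMN3, a microtubule regulator, at -0.53. The number called in Medium 1 was 8 without the hemin library of well G2 and 5 without the combination library of well F4, and 1 without D2 or E4, TIPARP being that gene. Across both media, the rule also selected TNFRSF18, a receptor of the TNF family, at -0.99 (adjusted p = 0.183), STOX1, a transcription factor, at 0.64, SERINC2 at -0.59, ANKRD28 at -0.39, GBF1, an Arf exchange factor, at -0.39 and ADCK3, of coenzyme Q synthesis, at -0.54 (adjusted p = 0.799 for these 5). It also selected LOC102723721 at 0.61 and LOC100288637 at 1.02, loci without a settled symbol whose values are uncertain. None of these passed across both media.

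Of 36 gene lists with a tested member, only the receptor's targets held a called gene in Medium 1, and only that list and the ribosomal proteins did in Medium 2. The list medians ran from -0.18 (epithelial markers of HCT116) to 0.37 (receptor targets) in Medium 1 and from -0.25 (glycolysis and glucose uptake) to 0.24 (heme uptake, export and breakdown) in Medium 2, over the 34 lists with at least 5 tested genes. The precision was such that the 95% interval lay within ±1 on the log2 scale for 82.2% of genes in Medium 1, 78.8% in Medium 2 and 94.8% over both media.

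Library totals in the 4 groups ran from 1346147 to 2981629 counts. Epithelial markers were present, with EPCAM, KRT8, KRT18 and KRT19 found in all 20 libraries and a sum of 1345 to 1754 CPM over 14 markers, while VIL1 had 0 counts. Of 29 markers of other cell types (immune, erythroid, endothelial and fibroblast), 26 were in the table, 7 of those were at 0 in all 20 libraries and the sum was 7.97 to 23.3 CPM, most of it COL1A1 and ACTA2. In Medium 1 the sum was 13.9 to 23.2 CPM with hemin and 17.6 to 23.3 CPM with kynurenine, and in Medium 2 9.48 to 14.9 and 7.97 to 12 CPM. Each group filled its own run of wells on the plate, so the place on the plate and the treatment cannot be told apart.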

How the data were processed

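RNA of HCT116 spheroids was sequenced from the transcript 3' end (QuantSeq, unique molecular identifiers, 48 ng RNA, 18 PCR cycles, per the labels' protocols). The authors deposited estimated counts per gene for 60 libraries; the submitters' processing notes name FastQC 0.11.9, UMI-tools 1.1.2, cutadapt 3.4, STAR, Salmon 1.5.2 and GRCh38. Of the values above 0, 21.4% were not whole, and all were rounded. Groups came from titles, matched to columns by treatment and medium; a treatment field that reads untreated for every sample was not used.

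All 60 libraries in 12 groups were fitted with edgeR 4.0.16 in R 4.3.3 (TMM scaling, quasi-likelihood test, 48 residual degrees of freedom) on 11298 of 29744 genes that passed filterByExpr (minimum count 10, total 15), which held 99.62% of counts. P-values are two-sided and Benjamini-Hochberg adjusted over all tested genes, and genes below 0.05 were called. The standard error was taken as the log2 fold change divided by the root of F. CPM values use TMM-scaled totals. The fit was also run on counts simulated with its own dispersions and the same effects in both media. Those counts hold no plate effect and no outlying library. The run therefore cannot tell how calls depend on single libraries.

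Named genes are up to 10 a direction past the threshold in order of p, filled to 5 by unadjusted p among genes of at least 10 CPM, a list of genes of the receptor, kynurenine and heme pathways, and up to 4 passing members of each of 39 gene lists. Some genes that the rule selects are not reported here. Genes named as non-passing list members were added after their values were seen. The comparison, members and lists were chosen with earlier results of these data known. Alternatives were RLE scaling, other filters, plate row as a covariate, the groups of a contrast alone, DESeq2 1.42.0, each library left out and, chosen after seeing the data, thinning to the lowest library total.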

Additional observations from a re-analysis of the deposited data

Results flagged for a closer look

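In 8 of 156 groups of 5 libraries, over 39 named genes, 1 library stood apart from the other 4 by Dixon's ratio (critical value 0.71), a rule by which chance marks about 1 in 20 groups. ALDH1A3 was at 144.9 CPM in the Medium 2 hemin library of well D6, beside 107.4 to 115.8, and still below every library with kynurenine. SYT1 was at 81.53 CPM in the Medium 2 hemin library of well B6, beside 70.22 to 73.15. In Medium 1 with both compounds, GTF2F2 was at 98.55 CPM (others 112.3 to 115.7) and DIAPH1 at 209.9 CPM (others 178.7 to 186.2) in well C4. There AHR was at 60.8 CPM in well F4 (others 35.01 to 39.32), and CCBL2 at 17.16 CPM in well D4 (others 28.6 to 32.84). In Medium 1 with hemin, RP9 was at 60.99 CPM in well C2 (others 24.86 to 34.18) and CCBL1 at 2.589 CPM in well G2 (others 4.889 to 5.697).

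The response to added kynurenine differed between media for 582 genes by the interaction term of the edgeR fit. Given as the log2 response in Medium 2 minus that in Medium 1, the genes chosen by the naming rule for Medium 1 were TIPARP at -1.95, TXNRD1 at -1.04, GCOM1 at -1.48, IDS at -0.75, TMED1 at 1.5, GPRC5C at 1.11, NACC1 at 1.64, RAE1 at 0.58 and STMN3 at 0.74. Genes that rose in Medium 2 and differed were ALDH1A3 at 1.0, GTF2F2 at 0.79, RP9 at 1.62, SNHG12 at 1.68, MRPS27 at 1.03, PSMB1 at 1.22, MED31 at 0.96, COIL at 0.96 and DHRS4 at 1.71. Genes that fell there and differed were SERINC2 at -1.29, ANKRD28 at -0.77, VHL at -0.63, ARHGAP32 at -1.22, NEO1 at -1.24, NR2F2 at -0.59, KLK7 at -1.26, DIAPH1 at -0.94 and SYT1 at -1.02. LOC100288637, whose name marks a locus without a settled symbol, differed by 1.96.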

How the results depend on the processing

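No paired analysis was possible because the columns carry no replicate numbers. The counts of calls moved with the settings as follows. In Medium 1, with 2 genes called, 1 was called with no filter, with the contrast's groups alone and after thinning, and leaving out 1 library gave 1 to 8. In Medium 2, with 49, the count was 92 with no filter, 107 with a filter at 10 CPM, 21 with plate row, 182 with the contrast's groups alone and 251 with DESeq2, and leaving out 1 library gave 5 to 144. Over both media, with 1, the count was 2 with no filter, with the contrast's groups alone and with DESeq2, and 1 to 2 with a library left out. The count of genes that differed between media, 582, was 368 with the contrast's groups alone and 61 to 1332 with a library left out. The count of genes whose response depended on hemin, 0 in each medium, was 1 in Medium 2 with no filter and 35 with DESeq2. With a library left out it was 0 to 1 in Medium 1, 0 to 161 in Medium 2, the highest without the kynurenine library of well F6, and 0 over both media. For the genes called in Medium 2, the call was kept in 207 of 490 fits with a library left out and in 253 of 325 other fits that gave an adjusted p, and none reversed. TIPARP in Medium 1, ALDH1A3 in Medium 2 and CYP1A1 over both media kept their calls in every fit run. The cause of these moves was not tested.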
